A study of Mus musculus with 20 samples.

Results

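The mu-class glutathione transferase genes Gstm1, Gstm2, Gstm4, Gstm5, Gstm6 and Gstm7 were examined in RNAseq of whole mouse hearts at E13.5 of embryonic development. They were taken by symbol from the deposited table, where they are ENSMUSG00000058135, ENSMUSG00000040562, ENSMUSG00000027890, ENSMUSG00000004032, ENSMUSG00000068762 and ENSMUSG00000004035 in that order, and make up 6 of its 48795 genes. All 6 passed the filter on low values in all 20 libraries. Gstm1 was put at the head of the set because it was higher in both mutant strains, so its mutant-to-WT values are given as a description, without a test. The comparison that these genes allow is whether the other 5 members moved with it.

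Hearts came from 2 strains that each carry an extra copy of a segment of mouse chromosome 16, Dp3Tyb and Ts1Rhr, and from wildtype (WT) embryos of each cohort, labelled wt_d and wt_t and read here as their littermates. There were 5 hearts in each of the 4 groups, and each library is 1 heart. The segment carried by Ts1Rhr is the shorter of the pair. The labels give heart defects for all 5 Dp3Tyb hearts and for Ts1Rhr replicates 1 and 2, and hearts were grouped by genotype. The paper, by contrast, describes Ts1Rhr embryos as free of congenital heart defects, and the labels were not checked further. Nothing in the labels says which litters the embryos came from, so p-values measure the spread between these hearts. The cohorts are separate sets of libraries. Libraries held 6600839 to 19634514 reads, and mitochondrial genes took 4.85% to 19.5% of them. The share was over 10% in 7 libraries, namely 1 WT and 1 mutant heart of the Dp3Tyb cohort and 3 WT and 2 mutant hearts of the Ts1Rhr cohort. These 2 mutants are Ts1Rhr replicates 1 and 2, so the share and the labelled defects cannot be told apart among Ts1Rhr hearts. Each Ts1Rhr value without the libraries over 10% also leaves out the mutants labelled with defects. All 18 cardiomyocyte markers examined were detected above the filter on low values.

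Glutathione transferases join the tripeptide glutathione to reactive compounds, including products of lipid oxidation and foreign chemicals, and so make them easier to remove. The mu class is a family of cytosolic enzymes that act as pairs of subunits, and its genes lie side by side in mammals. Several glutathione transferase genes are known targets of NRF2 (Nfe2l2), a transcription factor that is held back by KEAP1 and binds antioxidant response elements under oxidative stress. The genes lie on chromosome 3, away from the duplicated segments, and neither strain is described as carrying an extra copy of them.

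In the RefSeq annotation of GRCm38.p6, the build used to make the table, the cluster spanned chr3:107895854-108045179. Gstm5 lay at one end, at chr3:107895854-107898685 on the plus strand. The other members were on the minus strand, in the order Gstm7 (chr3:107926334-107931877), Gstm6 (chr3:107938847-107953641), Gstm2 (chr3:107981702-107986420), Gstm1 (chr3:108012250-108017973) and Gstm4 (chr3:108030571-108045179). Gstm3, a further mu-class gene, sits between Gstm6 and Gstm2.

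The first coding bases are shown because they let the reader see how alike the members are, which bears on how reads can be told apart. Each is a stretch of 60 coding bases of the canonical transcript in GENCODE vM39, with the bases that differ from Gstm1 in capitals. It starts at coding base 1, except in Gstm5, where it starts at base 10.
Gstm1: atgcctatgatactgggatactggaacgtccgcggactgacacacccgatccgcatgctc
Gstm2: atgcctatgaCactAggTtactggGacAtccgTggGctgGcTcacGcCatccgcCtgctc
Gstm4: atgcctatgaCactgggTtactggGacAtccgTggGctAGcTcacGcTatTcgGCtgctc
Gstm5: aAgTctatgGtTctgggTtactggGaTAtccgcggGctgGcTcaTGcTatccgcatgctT
Gstm6: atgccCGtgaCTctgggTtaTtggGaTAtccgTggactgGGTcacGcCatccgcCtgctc
Gstm7: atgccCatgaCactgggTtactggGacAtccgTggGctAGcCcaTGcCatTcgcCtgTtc

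Gstm2 differed from Gstm1 at 12 of these 60 bases, Gstm4 at 14, Gstm5 at 15, and Gstm6 and Gstm7 at 16 each. Over the whole coding sequence Gstm1 was 85.9% identical to Gstm2, 82.9% to Gstm6, 82.6% to Gstm7, 80.1% to Gstm4 and 71.4% to Gstm5. Gstm5 was thus the member least like Gstm1. The longest run that Gstm1 shared with another member was 60 coding bases, with Gstm2, from coding base 193 to 252 of both.
Gstm1 and Gstm2: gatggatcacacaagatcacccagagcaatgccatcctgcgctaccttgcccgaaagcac

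Only 1.06% of the 50-base windows of the Gstm2 transcript occurred in another mu-class gene, 2.67% of those of Gstm6, and none of Gstm4 or Gstm7. In Gstm1 10.1% did, of which most were shared with Gstm3. Gstm3 itself had 0 reads in 18 of the 20 libraries and at most 2 reads in any. In GENCODE vM39 Gstm5 is overlapped along its whole length by the lncRNA gene 4933431E20Rik on the opposite strand, and whether strand was used in counting is not given in the sources used here, so reads of the pair cannot be told apart with certainty. In RefSeq GRCm38.p6 the lncRNA, at chr3:107888850-107896213, overlaps the first part of Gstm5 only. Of the 50-base windows of the canonical Gstm5 transcript, 14.4% occurred on either strand in transcripts of another gene of the region, and none in a mu-class gene. With the other genes of the region counted too, the share was 6.48% for Gstm2 and 7.05% for Gstm6.

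Gstm1 was the member whose groups separated in both strains. The 5 WT hearts of the Dp3Tyb cohort had normalised values of 168, 189, 185, 163 and 182, and the 5 Dp3Tyb hearts had 225, 264, 279.7, 208 and 289.5. The lowest mutant heart was above the highest WT heart. The means were 177 ± 11.2 in WT and 253 ± 35.4 in Dp3Tyb (SD, n = 5 each), a difference of 0.50 ± 0.11 (SE) on the log2(value + 1) scale, or 1.42-fold. A normalised value is a read count divided by the library's size factor, and these rest on 62 to 338 reads per library.

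In the Ts1Rhr cohort the WT hearts had Gstm1 values of 196.5, 172.5, 181, 205 and 222, and the Ts1Rhr hearts had 285, 262, 268, 247 and 238. These groups did not overlap either. The means were 195 ± 19.7 in WT and 260.1 ± 18.2 in Ts1Rhr (SD, n = 5 each), which is 0.41 ± 0.09 (SE) on the log2 scale and 1.33-fold. Of all genes tested, 0.501% were higher in every Dp3Tyb heart than in every WT heart, and 0.619% in the Ts1Rhr cohort. Since Gstm1 was chosen for this pattern, nothing is read from its place among them.

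**Figure D1:**
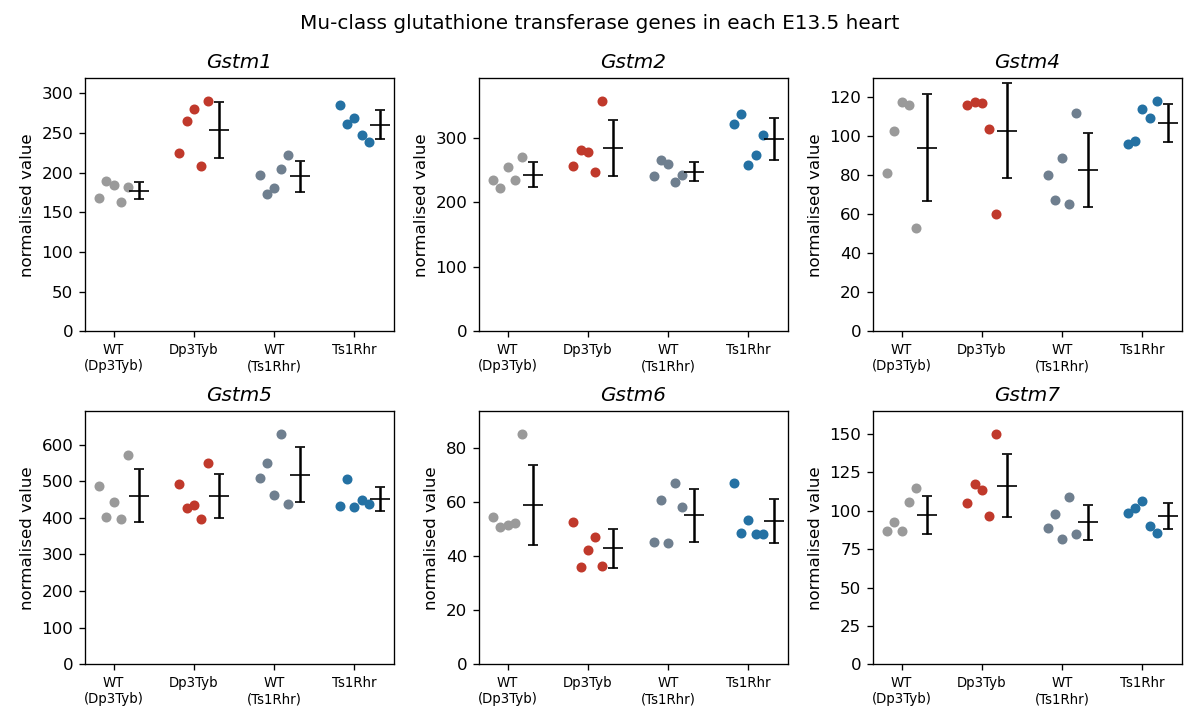
Normalised value (reads divided by size factor, from 0) of each member in the 20 hearts, 5 per group, with the mean and SD as black bars beside the points. Gstm1 is higher in all 5 mutant hearts than in all 5 WT hearts of its cohort in both strains, while the groups of the other 5 members overlap.

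The other 5 members differed among themselves in direction, and none passed the test. In Dp3Tyb hearts 4 of them had a log2 fold change above 0, among them Gstm5 at 0.00 with near-equal means, and 1 had one below 0, with a median of 0.14 beside -0.0027 over all 14763 genes tested. In Ts1Rhr hearts 3 were above and 2 below 0, with a median of 0.06 beside -0.0016 over 14867 genes. In limma's moderated test 0 of the 5 passed an adjusted p of 0.05 in either strain, where 0.0542% of all genes passed in Dp3Tyb and 0.0269% in Ts1Rhr. At an unadjusted p under 0.05, 1 of the 5 stood out in Dp3Tyb (Gstm6) and 2 in Ts1Rhr (Gstm2 and Gstm4), beside 2.80% and 5.52% of all genes. DESeq2, which called 0.181% and 0.175% of all genes, and edgeR also called 0 of the 5. In simulated data of the Dp3Tyb comparison limma recovered 23% of genes changed 1.5-fold. A missing call therefore does not show that a gene was unchanged. In bulk hearts, fewer cells of a type and less RNA per cell cannot be told apart.

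Gstm2, the member most like Gstm1 in coding sequence, was higher on average in both strains without passing the test. Its values were 234, 223, 254, 235 and 270.1 in WT and 256, 282, 278, 247 and 357 in Dp3Tyb hearts. Of the 5 Dp3Tyb hearts 3 were above every WT heart, and the log2 fold change was 0.21 ± 0.11 (SE; limma adjusted p = 1.0), or 0.13 without Dp3Tyb replicate 5, the highest. In the Ts1Rhr cohort the values were 241, 266, 259, 232 and 243 in WT and 321, 337, 257.5, 273 and 305 in Ts1Rhr hearts. There 4 of 5 mutants were above every WT heart, and the difference was 0.26 ± 0.09 on the log2 scale (limma adjusted p = 0.795). Without the libraries over 10% mitochondrial the Ts1Rhr value was 0.15.

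Gstm7, another cytosolic transferase, was higher on average in Dp3Tyb than in WT hearts (116 ± 20.4 against 97.3 ± 12.3, SD, n = 5 each), and the groups overlapped. Its log2 fold change was 0.25 ± 0.14 (limma adjusted p = 1.0), or 0.15 without Dp3Tyb replicate 5. In Ts1Rhr hearts it was 96.4 ± 8.51 against 92.3 ± 11.1, and the difference was 0.06 ± 0.12 on the log2 scale (limma adjusted p = 0.867). Without the libraries over 10% mitochondrial it was 0.17, with the 3 remaining mutant hearts above the 2 remaining WT hearts.

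Gstm6 was lower on average in Dp3Tyb hearts. Its values were 54.5, 51.0, 51.8, 52.3 and 85.1 in WT and 52.8, 36.0, 42.4, 47.0 and 36.4 in Dp3Tyb hearts. Of the 5 mutants 4 lay below every WT heart, and the log2 fold change was -0.44 ± 0.18 (limma adjusted p = 1.0). The highest WT value, 85.1, came from the shallowest library, with 29 reads of the gene, and without the libraries over 10% mitochondrial the log2 fold change was -0.24. In the Ts1Rhr cohort the means were 53.1 ± 8.09 in mutants and 55.2 ± 9.80 in WT, a difference of -0.05 ± 0.16 on the log2 scale (limma adjusted p = 0.931).

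Gstm5, the most abundant member, had near-equal means in the Dp3Tyb cohort. The means were 460.1 ± 60.7 in mutants and 460.2 ± 72.1 in WT hearts, and the log2 fold change was 0.00 ± 0.12 (limma adjusted p = 1.0). In the Ts1Rhr cohort the WT hearts had 509, 550.1, 462, 628 and 438 and the mutants 433.5, 507, 431, 449 and 438. The difference was -0.19 ± 0.10 (limma adjusted p = 0.795), and it was -0.04 without the libraries over 10% mitochondrial and -0.11 without WT replicate 4 alone. The lncRNA gene that overlaps it had means of 243 and 229 in Dp3Tyb and WT hearts and 255 and 251 in Ts1Rhr and WT hearts.

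Gstm4 was higher on average in both strains without passing the test. Its values were 81.1, 103, 117.5, 116 and 52.9 in WT and 116, 117, 117, 103.5 and 60.1 in Dp3Tyb hearts, and the groups overlapped. The log2 fold change was 0.14 ± 0.25 (limma adjusted p = 1.0), and leaving out WT replicate 5, the shallowest library, turned it to -0.05, while leaving out Dp3Tyb replicate 5 made it 0.32. In the Ts1Rhr cohort the values were 79.9, 67.3, 88.7, 65.1 and 112 in WT and 95.8, 97.6, 114, 109 and 118 in mutants. The log2 fold change was 0.39 ± 0.15 (limma adjusted p = 0.795), and it was 0.19 without the libraries over 10% mitochondrial.

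**Figure D2:**
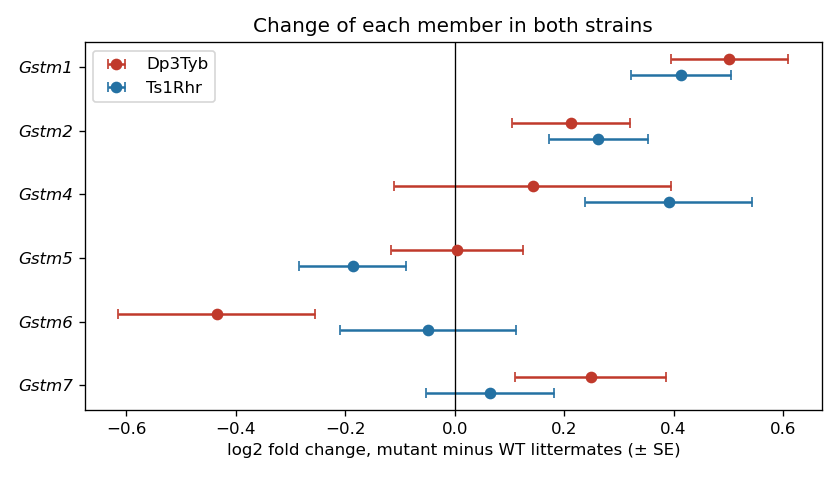
Log2 fold change of each member, mutant minus WT littermates, on the log2(value + 1) scale with its SE, for Dp3Tyb (red) and Ts1Rhr (blue), 5 hearts per group. Gstm1, Gstm2, Gstm4 and Gstm7 are above 0 in both strains, Gstm6 is at -0.44 in Dp3Tyb, and Gstm5 is at 0.00 in Dp3Tyb and -0.19 in Ts1Rhr.

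The strains were then compared with each other, in a fit of all 20 libraries that asks whether a member changed differently in Dp3Tyb than in Ts1Rhr hearts. None of the other 5 members passed, beside 0.0130% of 15348 genes. The difference was furthest from 0 for Gstm6, at -0.39 ± 0.24 (SE; limma adjusted p = 1.0). For Gstm1, chosen for being higher in both strains, it was 0.09 ± 0.14 and is given as a description. Between the WT groups of the cohorts no member passed either, and limma called 0 of 15348 genes, beside 5.84% at an unadjusted p under 0.05 and 5 genes (0.0185%) by DESeq2. Gstm1 was 0.14 ± 0.10 higher in the WT hearts of the Ts1Rhr cohort (limma adjusted p = 0.834). Some marker lists differed between these WT groups. Of 13 erythroid markers 12 were higher in the Ts1Rhr cohort (median log2 difference 0.92). Of these 13, 9 had a limma unadjusted p under 0.05 and DESeq2 called 2. Of 12 lung and foregut markers 11 were higher there (median 2.39), with 5 at that unadjusted p and 0 called by DESeq2.

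Summed over the 6 members, the normalised values were 1131 ± 87.3 in WT and 1259 ± 122 in Dp3Tyb hearts, and 1191 ± 72.7 in WT and 1267 ± 58.2 in Ts1Rhr hearts (SD, n = 5 each). These correspond to 1.11-fold and 1.06-fold. Both were smaller than the ratios of Gstm1 alone, and the ranges of mutant and WT hearts overlapped.

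Levels of different members were set side by side per length, in the 10 WT hearts, as the normalised value per kb of merged exons. Gstm5 was highest at 382 ± 59.1 (SD, n = 10), then Gstm2 at 128.5 ± 8.26, Gstm1 at 74.1 ± 7.10, Gstm4 at 40.9 ± 10.6, Gstm7 at 22.6 ± 2.71 and Gstm6 at 15.3 ± 3.20. The ranges of Gstm5, Gstm2, Gstm1 and Gstm4 did not touch each other. Those of Gstm4 and Gstm7, and of Gstm7 and Gstm6, did. With the canonical transcript as the length, an alternative chosen after seeing the data, Gstm7 came before Gstm4 (66.3 against 51.7), and the order of the first 3 was as before.

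**Figure D3:**
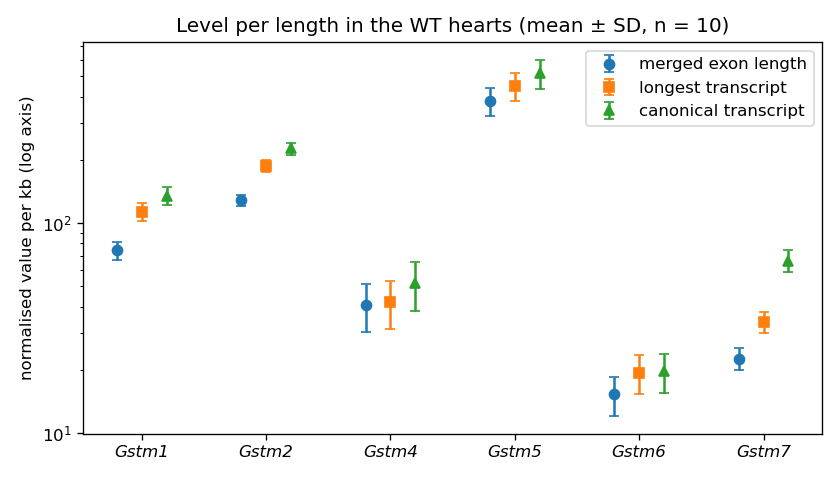
Level of each member per kb in the 10 WT hearts (mean ± SD, log axis) with 3 choices of length. Gstm5 is highest and Gstm6 lowest under each, and Gstm4 and Gstm7 trade places with the canonical transcript.

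Members of a cluster can also rise and fall together from heart to heart within a group, and this was examined over the deviations of each heart from its group mean. Of the 15 pairs, 1 passed a permutation test after adjustment, and it ran in opposite directions. Gstm4 and Gstm5 had r = -0.83 and rho = -0.75 over 20 libraries (permutation p = 0.00029 and 0.00157, adjusted over 15 pairs 0.00435 and 0.0235). It was -0.72 without the 2 libraries farthest out, -0.84 within the Dp3Tyb cohort and -0.86 within the Ts1Rhr cohort. With the mitochondrial share removed it was -0.40 (permutation adjusted p = 0.626), and in the 13 libraries at or under 10% it was -0.39 (permutation adjusted p = 0.85).

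The next pairs were close to the threshold, namely Gstm4 and Gstm7 (r = -0.67, rho = -0.48) and Gstm5 and Gstm7 (r = 0.63, rho = 0.44), each with a permutation adjusted p of 0.0509 for r and 0.401 for rho. Both passed when WT replicate 1 or 4 of the Dp3Tyb cohort or Ts1Rhr replicate 1 or 3 was left out (permutation adjusted p for r = 0.014 to 0.0489), so that 3 pairs passed there. Gstm2 and Gstm5 (r = 0.48, permutation adjusted p = 0.103) passed without WT replicate 4 of the Ts1Rhr cohort (r = 0.63, permutation adjusted p = 0.0385). With the mitochondrial share removed, r was -0.03 for Gstm4 and Gstm7, 0.00 for Gstm5 and Gstm7 and -0.05 for Gstm2 and Gstm5, and in the 13 libraries at or under 10% the first of these became 0.39 and the second -0.31.

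No pair that included Gstm1 passed the permutation test. Its r was 0.47 with Gstm7 (rho 0.41, permutation p = 0.0873 and 0.122, adjusted 0.187 and 0.401) and 0.36 with Gstm2 (rho 0.26, permutation p = 0.225 and 0.316, adjusted 0.337 and 0.475). With Gstm2 it was 0.70 within the Dp3Tyb cohort and -0.21 within the Ts1Rhr cohort. Among 15347 genes ranked by r with Gstm1, Gstm7 came at rank 753, Gstm2 at 1713, Gstm5 at 5209, Gstm6 at 7878 and Gstm4 at 9316. The genes most like it were Shfl (r = 0.80), Rubcnl, Lhpp, Rnf6, Rph3al, Nrap, Mef2d, Clip4, Gpnmb and Gm16425 (down to r = 0.77), given as a description over 20 libraries that share depth and quality.

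**Figure D4:**
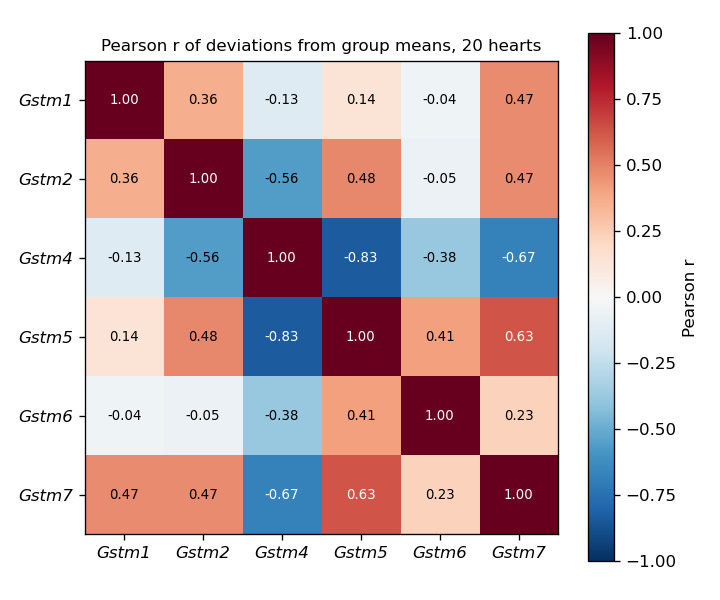
Pearson r between members of deviations from the group mean of log2(value + 1), over 20 hearts (red positive, blue negative). Gstm4 runs opposite to Gstm5 (-0.83), the 1 pair that passed the permutation test, and Gstm1 has no r above 0.47.

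The mitochondrial share fell into separate sets of libraries, 13 at 4.85% to 7.17% and 7 at 10.5% to 19.5%. Gstm4 was 81.1 to 118 in the first set (median 114) and 52.9 to 97.6 in the second (median 67.3). Gstm5 was 397 to 492 in the first (median 438) and 433.5 to 628 in the second (median 549.7). The split ran through the groups unevenly, and its part in the differences of Gstm4 and Gstm5 was not tested beyond the fits named above. Ampd2, the gene next to Gstm4, also had a lower median in the second set (498 against 670.0). Among 15348 genes ranked by this log2 shift of medians, Gstm4 stood at the 2.35th percentile, Ampd2 at the 10.8th and Gstm5 at the 84.7th. Gstm1, on the other side of Gstm4, stood at the 37.0th, Gstm2 at the 60.8th, Gstm7 at the 66.6th and Gstm6 at the 78.8th.

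Since every mutant heart exceeded every WT heart of its cohort in Gstm1, the same had to hold within each set, and its values there are a description. In the libraries at or under 10%, Dp3Tyb hearts had 208 to 279.7 against 163 to 189 in WT (4 hearts each), and Ts1Rhr hearts had 238 to 268 against 181 to 222 (3 and 2 hearts). Over 10%, the single Dp3Tyb heart had 289.5 against 182 in the single WT heart, and the 2 Ts1Rhr hearts had 262 and 285 against 172.5 to 205 in 3 WT hearts. Within the first set the log2 differences were 0.46 and 0.32.

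**Figure D5:**
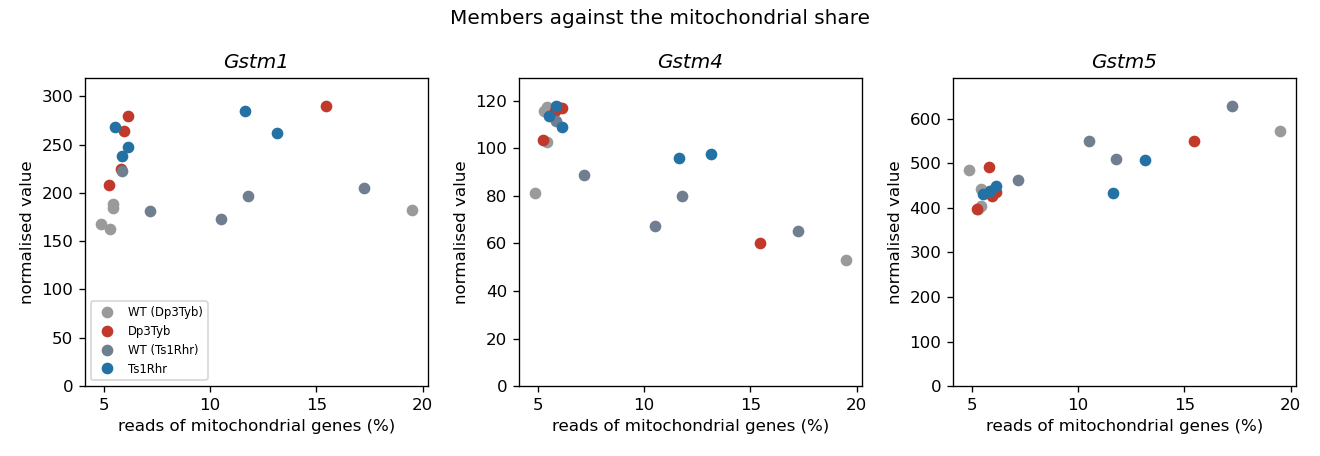
Normalised value of Gstm1, Gstm4 and Gstm5 (from 0) against the percentage of reads from mitochondrial genes, 1 point per heart, coloured by group. Gstm4 is lower and Gstm5 higher by median in the 7 libraries at 10.5% or more than in the 13 at 7.17% or less, and mutant Gstm1 points sit above the WT points of their own cohort in both sets.

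Markers of other heart cells were compared between the same groups. Of 14 macrophage markers, 14 were higher in Dp3Tyb and 12 in Ts1Rhr hearts (median log2 fold changes 0.27 and 0.26), with 0 called by limma. At an unadjusted p under 0.05 there were 3 and 5 of the 14, beside 2.80% and 5.52% of all genes, and 1 did not overlap with WT in Ts1Rhr hearts, beside 0.619%. Their summed values were 1650 to 2535 in WT and 2355 to 2842 in Dp3Tyb hearts, and 1876 to 2282 in WT and 2029 to 2893 in Ts1Rhr hearts. Of 17 fibroblast and mesenchymal markers, 16 and 13 were higher (medians 0.14 and 0.07), with 0 called. Erythroid markers were higher for 10 of 12 in Dp3Tyb and 12 of 13 in Ts1Rhr hearts (median log2 fold changes 0.15 and 0.23). Cardiomyocyte markers were lower for 14 of 18 and 10 of 18 (medians -0.09 and -0.02). Lung and foregut markers, low in all groups, were higher for 10 of 11 in Dp3Tyb and lower for 11 of 11 in Ts1Rhr hearts (medians 1.86 and -1.63), with overlapping summed values of 133 to 875 in WT and 255.5 to 1175 in Dp3Tyb hearts and of 429.6 to 951 in WT and 154.5 to 771 in Ts1Rhr hearts. Neural crest, Schwann and neuronal markers were higher for 10 of 11 and 3 of 12 (medians 0.57 and -0.15). The medians of endothelial, epicardial and smooth muscle markers lay between -0.03 and 0.08, those of 4 tested liver markers were 0.24 and 0.03, and limma called 0 in any of these lists. The part of macrophages and of the other cells in the Gstm1 values was not tested. A mesenchymal marker score, added to the fit after seeing the data, gave Gstm1 log2 differences of 0.53 in Dp3Tyb and 0.42 in Ts1Rhr. An epicardial score, also added later, gave 0.52 and 0.42. No macrophage score was fitted. Gstm1 was chosen for this difference, so these values are a description and not a test.

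The genes around the cluster and the other genes of glutathione metabolism gave no call. Of 17 neighbours within 500 kb that passed the filter, 9 were higher in Dp3Tyb and 12 in Ts1Rhr hearts, none past the limma threshold, and their log2 fold changes lay between -0.12 and 0.31 and between -0.05 and 0.36. Among 13 tested transferases of other classes, 10 were higher in each strain and 0 were called, with log2 fold changes between -0.61 and 0.97 and between -0.51 and 0.39. Gstt2, a theta-class gene, was 0.97 ± 0.35 higher in Dp3Tyb hearts (limma adjusted p = 1.0) at means of 33.5 and 17.7, and was the 1 gene of the 13 whose mutants all lay above WT, beside 0.501% of all genes. In Ts1Rhr hearts it was 0.39 ± 0.30 with overlapping groups (limma adjusted p = 0.795). Gstt1, of the same class, was 0.11 ± 0.25 and -0.51 ± 0.25 (limma adjusted p = 1.0 and 0.795). Gstp2, a pi-class gene at means of 7.85 to 14.8 whose reads can be shared with its close copy Gstp1, was -0.61 ± 0.34 and -0.15 ± 0.28 (limma adjusted p = 1.0 and 0.872). Gsta4, which clears a product of lipid oxidation, was 0.28 ± 0.13 (adjusted p = 1.0) and 0.05 ± 0.11 (limma adjusted p = 0.900).

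Of 33 tested genes of glutathione synthesis, recycling and peroxidases, 22 were higher in Dp3Tyb and 24 in Ts1Rhr, with medians of 0.04 and 0.06, and none passed limma. Gclc, the catalytic subunit of the first enzyme of synthesis, was 0.13 ± 0.11 and -0.19 ± 0.09 (limma adjusted p = 1.0 and 0.795). The 11 NRF2 regulators, Nfe2l2 and Keap1 among them, lay between -0.11 and 0.10 in Dp3Tyb hearts and between -0.16 and 0.27 in Ts1Rhr hearts. Of 30 tested NRF2 targets, 22 and 24 were higher with a median of 0.08 in each, and none passed limma. Nqo1, a quinone reductase, was 0.39 ± 0.27 and 0.40 ± 0.27, Hmox1, a heme-degrading enzyme, 0.06 ± 0.12 and 0.37 ± 0.15, and Srxn1, a sulfiredoxin, 0.32 ± 0.17 and 0.20 ± 0.12 (limma adjusted p of 1.0 in Dp3Tyb and 0.795 in Ts1Rhr for each).

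Promoters were searched on both strands of the 250 bases before each RefSeq start. The antioxidant response element core, TGACNNNGC, is held by 10.2% of 32851 mouse promoters of that length. The TATA box letters TATAAA are held by 12.4%, the short CCAAT motif by 33.9%, and the GC box letters GGGCGG by 32.7%. The promoters of Gstm1 and Gstm5 are shown because Gstm1 heads the set and Gstm5 is the member least like it in coding sequence, with the matches in capitals. They lie in GRCm38.p6 at chr3:107895604-107895853 (plus strand) for Gstm5 and chr3:108017819-108018068 (minus strand) for Gstm1.
Gstm1: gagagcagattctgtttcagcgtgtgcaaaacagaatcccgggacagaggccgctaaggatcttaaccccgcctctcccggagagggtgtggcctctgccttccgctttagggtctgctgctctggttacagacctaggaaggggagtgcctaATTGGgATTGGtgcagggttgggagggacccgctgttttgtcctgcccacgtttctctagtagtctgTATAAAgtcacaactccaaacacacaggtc
Gstm5: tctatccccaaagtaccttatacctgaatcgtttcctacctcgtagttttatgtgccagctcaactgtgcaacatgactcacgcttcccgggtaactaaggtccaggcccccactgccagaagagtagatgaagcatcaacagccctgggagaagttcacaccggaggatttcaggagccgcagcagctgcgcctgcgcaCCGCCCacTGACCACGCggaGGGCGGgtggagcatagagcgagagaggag

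The Gstm1 window shown, 1 of 2 RefSeq windows of the gene, held TATAAA starting 30 bases before the start and 2 CCAAT matches on the reverse strand. The Gstm5 window held 1 antioxidant response element core match, 42 bases before the start, and 2 GGGCGG matches. Among the windows of the other members, the same core occurred in 1 of Gstm7, 129 bases before its start. A match is a run of letters and was not tested for binding.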

How the data were processed

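RNA was taken from 20 E13.5 hearts, 5 in each of 4 genotype groups, and libraries were made with a KAPA mRNA HyperPrep kit. Per the submitters' processing notes, Trimmomatic 0.36, STAR 2.5.2a, RSEM 1.2.31, DESeq and DESeq2 were used with GRCm38, and the annotation release and use of strand are not given in the sources used here. RSEM shares reads of paralogs out by estimate. The deposited values are a signal, gene read counts that the authors divided by a size factor per library, and 100% of values came back as whole reads (tolerance 0.0001). Symbols were matched for 91.3% of 48795 IDs.

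Since the table holds values scaled by library, genes were tested with limma 3.58.1 (R 4.3.3; trend and robust) on log2(value + 1), with Benjamini-Hochberg adjustment over all genes at 10 or more in at least 5 libraries, and a threshold of 0.05. Each strain was fitted with its own WT hearts, and the strain difference and the WT comparison were taken from all 20. DESeq2 1.42.0 and edgeR 4.0.16 on the whole reads, other pseudocounts (0.1 and 10), scaling, weights, covariates and leaving out libraries were alternatives. Scripts were tested on simulated data of the Dp3Tyb comparison. There limma recovered 23% of genes changed 1.5-fold and 67% of those changed 2-fold. DESeq2 recovered 47% and 80%, with more false calls (37 against 3). Co-variation used 100000 permutations within groups. Fold changes on this scale understate changes of low genes.

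The members and lists were chosen with earlier results of these data known. Genes named were the members, fixed examples, the 2 largest changes per pathway list and strain and any called, the nearest 3 genes on each side, and the 10 most like Gstm1, with the smaller ones given as ranges. The split by mitochondrial share was examined after seeing the data. Promoters and positions are from RefSeq GRCm38.p6, and transcripts and lengths from GENCODE vM39. Protein sequences were not used here.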

Additional observations from a re-analysis of the deposited data

Results flagged for a closer look

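Values that stood far from the other 4 hearts of their group were looked for in 24 groups of 5, where chance alone gives about 1 in 20, and 4 were found. Gstm4 was low in Dp3Tyb replicate 5, at 60.1 against 103.5 to 117 in the others. Gstm6 was high in WT replicate 5 of the Dp3Tyb cohort, at 85.1 against 51.0 to 54.5, and that library has 6600839 reads, the fewest. Gstm6 was also high in Ts1Rhr replicate 1, at 67.1 against 48.1 to 53.3. Gstm5 was high in Ts1Rhr replicate 2, at 507 against 431 to 449. All 4 of these libraries had over 10% of reads from mitochondrial genes (15.5%, 19.5%, 11.6% and 13.1%), and the part of this in the values was not tested. None of the 5 members other than Gstm1 differed between the strains past the threshold.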

How the results depend on the processing

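No paired analysis was run, because the labels give the hearts no replicate numbers. The numbers used here follow the order of the samples, which was not taken to pair them. Neighbours in that order alternate between WT and mutant and match in sex. They also mostly fall on the same side of 10% mitochondrial. Of the 5 members other than Gstm1, 0 were called in either strain under any of 13 alternatives or 10 fits that left out 1 library. Gstm1, whose direction could not turn because its groups did not overlap, was 0.45 to 0.57 in Dp3Tyb and 0.37 to 0.46 in Ts1Rhr when 1 library was left out, and summing the reads of all 6 members gave 0.15 and 0.09. Low read numbers limit Gstm4 and Gstm6, with as few as 18 and 26 reads. The cause of the shifts below was not tested.

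In Dp3Tyb 8 genes were called, against 4 with no filter, 4 with a sex term, 57 with array weights, 45 with a mitochondrial term, 30 without libraries over 10% mitochondrial, 30 by DESeq2, 17 in the fit of all 20 libraries, and, added after seeing the data, 0 with a mesenchymal and 2 with an epicardial marker term. In Ts1Rhr 4 were called, against 16 with array weights, 25 with a mitochondrial term, 0 without libraries over 10% mitochondrial, 25 by DESeq2, 11 in the fit of all 20, 1 with the mesenchymal and 8 with the epicardial term. For the strain difference 2 became 0 with no filter, TMM scaling or a sex term, and for the WT groups 0 became 5 by DESeq2. Leaving out 1 library gave 2 to 13, 1 to 6, 0 to 3 and 0 to 2 in these 4 comparisons, and 1 to 3 pairs of members. The 1 pair became 0 with the mitochondrial share removed and 0 without libraries over 10% (added later).

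Some log2 values and correlations changed sign. The strain difference of Gstm2 became 0.0123 with array weights and 0.018 without libraries over 10% mitochondrial. Gstm5 in Dp3Tyb became -8.27e-06 with TMM scaling, -0.00723 with the mesenchymal and -0.0548 with the epicardial term. Gstt1 in Dp3Tyb became -0.115 and -0.0797 with these 2 terms, and Gstp2 in Ts1Rhr 0.0104 with the mesenchymal term. Gstm6 in Ts1Rhr became 0.00184 with the mitochondrial and 0.000166 with the mesenchymal term. With the mitochondrial share removed, r became 0.341 for Gstm1 and Gstm4, -0.256 for Gstm1 and Gstm5, -0.0467 for Gstm2 and Gstm5, 0.0421 for Gstm4 and Gstm6 and -0.201 for Gstm6 and Gstm7. Without libraries over 10% it became 0.443 for Gstm1 and Gstm4, -0.0983 for Gstm1 and Gstm5, 0.244 for Gstm2 and Gstm4, -0.141 for Gstm2 and Gstm7, 0.0734 for Gstm4 and Gstm6, 0.393 for Gstm4 and Gstm7 (from -0.672 over all libraries), -0.312 for Gstm5 and Gstm7 and -0.159 for Gstm6 and Gstm7. Leaving out 1 library, Gstm4 in Dp3Tyb ranged from -0.048 to 0.323, Gstm5 from -0.063 to 0.0854, Hmox1 from -0.0252 to 0.122, Gstt1 from -0.0859 to 0.243 and Ampd2 from -0.0351 to 0.246. In Ts1Rhr Gstm6 ranged from -0.135 to 0.0239, Gstp2 from -0.333 to 0.0067 and Gsta4 from -0.000561 to 0.147, and between WT groups Gstm2 from -0.0016 to 0.0671 and Gstm6 from -0.155 to 0.0566. For r the ranges were -0.303 to 0.128 for Gstm1 and Gstm4, -0.0335 to 0.305 for Gstm1 and Gstm5, -0.157 to 0.0725 for Gstm1 and Gstm6, and -0.307 to 0.136 for Gstm2 and Gstm6.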

Other observations

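Cbr1, a carbonyl reductase gene on the list of examples, lies in the part of the segment that Dp3Tyb carries in an extra copy and Ts1Rhr does not. Of the fixed examples it was the 1 gene past the limma threshold, in Dp3Tyb hearts. Its log2 difference there was 0.64 ± 0.07 (SE; means of 525 and 337, limma adjusted p = 0.0126). Cbr1 belongs to none of the pathway or marker lists. It was 0.06 ± 0.08 in Ts1Rhr hearts (limma adjusted p = 0.829), and the strain difference was 0.58 ± 0.10 (limma adjusted p = 0.101, DESeq2 adjusted p = 0.000477). DESeq2 (adjusted p = 2.57e-12) and edgeR (adjusted p = 0.0097) also called it in Dp3Tyb, as did limma with other pseudocounts, no filter, TMM scaling, array weights, a sex or mitochondrial term, without libraries over 10% mitochondrial and in the fit of all 20 libraries (adjusted p = 4.01e-05 to 0.0324). The call in Dp3Tyb was kept when WT replicate 5, Dp3Tyb replicate 2 or Dp3Tyb replicate 5 was left out (limma adjusted p = 0.00829 to 0.0349). It was lost when WT replicate 1, 2, 3 or 4 or Dp3Tyb replicate 1, 3 or 4 was left out (limma adjusted p = 0.054 to 0.0684), and, with terms added after seeing the data, with a mesenchymal (limma adjusted p = 0.139) or an epicardial marker score in the fit (limma adjusted p = 0.241). The log2 difference stayed between 0.60 and 0.66 in all of these fits.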
